A study of Homo sapiens with 16 samples.

Results

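The genes described here are those that encode the proteins of the mitochondrial ribosome and carry an MRPL or MRPS symbol. They were chosen by symbol alone, as MRPL or MRPS followed by a number and an optional letter, which took 77 of the 26485 genes in the count table, 48 with an MRPL and 29 with an MRPS symbol. The antisense gene MRPL23-AS1 and the pseudogenes MRPL42P5, MRPL45P2 and MRPS31P5, 4 genes in all, were left out. All 77 passed the filter on low counts in each cell line. The study asked which 6-base seed makes an siRNA most toxic to human cancer cells, and the 16 RNA-seq libraries read here compare siRNAs in 2 established lines, PC3 from a prostate carcinoma and HeyA8 from an ovarian carcinoma. In each line there was 1 library at 24 h and 1 at 48 h of cells labelled mock treated, of cells given the nontoxic siRNA siNT1, of cells given siGGGGGC, which was named for its seed, and of cells given siCAG, whose sequence is not given in the sources used here. The sample titles and count columns call the siGGGGGC libraries siMxy and the siNT1 libraries siNT, whereas the treatment labels give the names used here. The labels give the lines as wild type and the siRNA dose as 1 nM with RNAiMAX, whereas the methods of the study give a higher concentration. Depth was 27937092 to 29971612 counted reads in the 8 PC3 libraries and 29128446 to 31790209 in the 8 HeyA8 libraries.

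Mitochondria hold their own ribosome, which translates the few mRNAs of mitochondrial DNA into core subunits of the respiratory chain and of ATP synthase. Its rRNAs come from mitochondrial DNA, but all of its proteins are encoded in the nucleus, made in the cytosol and imported. Some of these proteins have counterparts in bacterial ribosomes, and others were added in mitochondria. Of the members, 50 belong to the large subunit, which forms peptide bonds, 30 with a bacterial counterpart and 20 without. The small subunit, which decodes the mRNA, has 26, of which 16 have a bacterial counterpart and 10 have none. MRPS18A and MRPS30 were counted with the large subunit, where both proteins sit despite their symbols. MRPS36 was counted with neither, since it is now known as a component of the oxoglutarate dehydrogenase complex.

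Markers of the 2 lines were read in the mock libraries as CPM, that is, counts scaled to a library size of 1000000 reads after TMM normalization over all 16 libraries, at 24 and 48 h. The epithelial keratin gene KRT8 stood at 224 and 207 CPM in PC3 and 660.2 and 851 in HeyA8, and KRT18 was also higher in both HeyA8 libraries. The epithelial adhesion genes went the other way, with EPCAM at 13.0 and 15.9 CPM in PC3 and 0.827 and 1.375 in HeyA8 and CDH1 at 8.89 and 8.503 in PC3 and 0.108 and 0 in HeyA8. The mesenchymal filament gene VIM stood at 965 and 945 CPM in PC3 and 6851 and 8063 in HeyA8, whereas CDH2 overlapped between the lines and COL1A1 was higher in PC3 (21.3 and 23.3 CPM against 6.51 and 4.23). TMPRSS2, a protease gene of prostate epithelium, stood at 22.5 and 29.9 CPM in PC3 and at 0 in both HeyA8 libraries, while the prostate genes KLK2 and KLK3 were at 0 in all 4. PAX8, a transcription factor gene of ovarian carcinoma, stood at 144 and 203 CPM in HeyA8 and 4.04 and 2.81 in PC3, and MUC16 was at or near 0 in both lines. The blood cell gene CD3E was at 0 in all 4 libraries.

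The RNA strand that siGGGGGC recognizes through its seed reads GCCCCC, so the 3′ UTRs of the members were searched for those letters on the sense strand. With the GENCODE v44 transcript that had the most 3′ UTR bases taken for each coding gene, 14 of the 77 members held GCCCCC (18.2%), against 29.99% of the 18986 genes of the table with a 3′ UTR, and the median 3′ UTR measured 580.0 nt in the members and 1228.5 nt over those genes. These were MRPL4, MRPL12, MRPL19, MRPL20, MRPL23, MRPL38, MRPL42, MRPL49, MRPS5, MRPS11, MRPS23, MRPS26, MRPS27 and MRPS34. MRPL4 and MRPL42 held 3 copies each, MRPL38 held 2 and the remaining members 1 each. The windows below show the letters in capitals with 12 flanking bases on either side, 5′ to 3′ on the strand of the gene (hg38), for the members whose values are discussed most. The MRPL12 copy lies at chr17:81707317-81707322, plus strand, the MRPL38 copies at chr17:75898740-75898745, minus strand and chr17:75898727-75898732, minus strand, the MRPL4 copies at chr19:10259586-10259591, plus strand, chr19:10259598-10259603, plus strand and chr19:10259609-10259614, plus strand, and the MRPL20 copy at chr1:1405367-1405372, minus strand.
MRPL12: gtcactggctccGCCCCCagcaccaggcgc
MRPL38, first copy: ctgccttaggcaGCCCCCctctttggcccc
MRPL38, second copy: cccccctctttgGCCCCCtcccgtcaggcc
MRPL4, first copy: ccggcctgaccgGCCCCCcgccccgccccc
MRPL4, second copy: gccccccgccccGCCCCCaccccgccccca
MRPL4, last copy: cgcccccaccccGCCCCCaggcctaaatgt
MRPL20: ggatcactttgaGCCCCCaggagtttgaag
The 3 MRPL4 copies lie close together in a C-rich stretch, and the 2 MRPL38 copies are also close neighbours. For siCAG, taken from its name alone to carry CAG repeats, the letters sought were CTG repeated in tandem, in the coding sequence and 3′ UTR of the transcript with the longest coding sequence. No member held 3 or more CTG in a row, which 15.9% of genes did. The longest run was 2 in 48 members and 1 in 29. A match is a description of the sequence and does not show that the siRNA acts there.

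In PC3, siGGGGGC raised 2 of the 77 members over siNT1 and lowered none by the quasi-likelihood test of edgeR with Benjamini-Hochberg adjustment over all 15136 genes tested (adjusted p under 0.05). Over all those genes 6.00% were called lower and 3.67% higher. Each condition was replicated only across the time points, 24 and 48 h, which the methods of the study describe as separate wells. Whether the wells came from separate transfections is not given in the sources used here, so p-values measure the spread between these libraries. With siRNA and time point as terms of the model, a response that differed between 24 and 48 h counted as part of that spread. At an unadjusted p under 0.05, 2 members were lower and 7 higher, which is 2.60% and 9.09% of them beside 17.1% and 15.0% of all genes. Every member stayed within 2-fold of siNT1 in the fit, as did 87.1% of all genes. The median log2 fold change of the members was 0.17, against 0.00289 over all genes, and it was 0.25 at 24 h and 0.09 at 48 h. The large-subunit genes had a median of 0.20 and the small-subunit genes one of 0.06. The plot of ranked fold changes shows the members as a continuous run around a median close to 0.

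**Figure D1:**
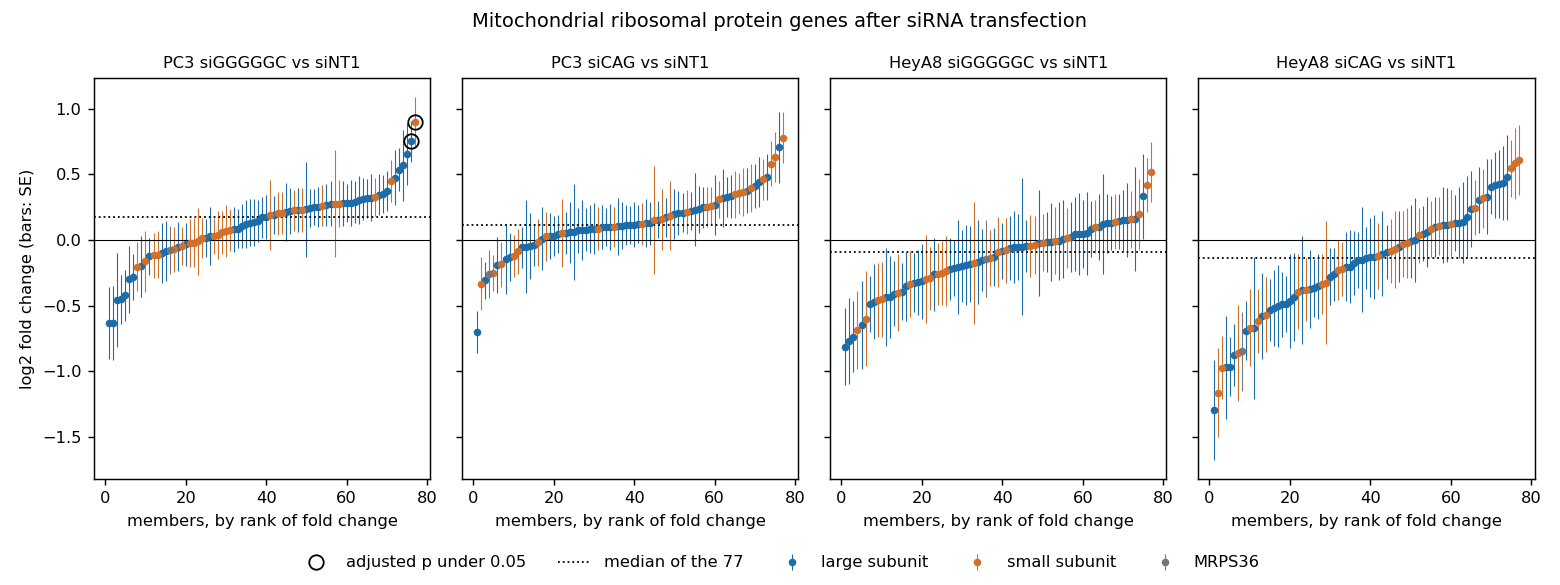
Log2 fold change (vertical axis) of each of the 77 members against its rank (horizontal axis) for siGGGGGC or siCAG against siNT1 in PC3 and HeyA8. Points are edgeR estimates with bars of 1 SE, colour marks the subunit, rings mark the 2 members past the adjusted p threshold (MRPL28 and MRPS28, both in PC3 with siGGGGGC), and the dotted line is the median of the members, which was above 0 in PC3 and below 0 in HeyA8.

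The 2 members called were MRPL28 of the large subunit (chr16:366969-371289, minus strand, hg38) and MRPS28 of the small subunit. MRPL28 stood at 39.1 CPM at 24 h and 36.8 at 48 h with siNT1, at 60.4 CPM at 24 h and 67.4 at 48 h with siGGGGGC and at 40.0 CPM at 24 h and 39.0 at 48 h in mock cells (CPM scaled within the line). Both siGGGGGC libraries lay above all 6 others of the line. The log2 fold change was 0.75 (SE 0.15, edgeR adjusted p = 0.0309). MRPS28 stood at 40.1 CPM at 24 h and 26.0 at 48 h with siNT1 and at 65.5 CPM at 24 h and 56.5 at 48 h with siGGGGGC, for a log2 fold change of 0.90 (SE 0.19, edgeR adjusted p = 0.0335). Its mock libraries held 45.0 and 43.6 CPM, so the siNT1 library at 48 h was the lowest of the line for this gene. With mock in place of siNT1 as control, the MRPS28 change came to 0.46 (edgeR adjusted p = 0.124), while MRPL28 remained called at 0.69 (adjusted p = 0.0218). Fitting only the 4 libraries of siGGGGGC and siNT1 called 2.48% of all genes lower and 0.512% higher. Neither of the 2 members was called there (edgeR adjusted p = 0.105 for MRPL28 and 0.0799 for MRPS28). Without either siNT1 library in turn no gene of the table was called, these included. As single libraries were omitted, MRPL28 kept a log2 fold change of 0.59 to 0.85 and MRPS28 one of 0.64 to 1.18. Exons of MRPL28 overlap those of PGAP6 on the same strand in the annotation, and exons of MRPS28 those of another protein-coding gene on its strand. Reads there cannot be assigned to either gene of a pair by strand.

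At the other end of the ranking in PC3 with siGGGGGC were MRPL1, which forms the mobile stalk near the exit of tRNA, MRPL24 and MRPL12, the stalk protein that recruits translation factors. None of them passed the test. MRPL1 stood at 20.9 CPM at 24 h and 11.2 at 48 h with siNT1 and at 11.2 CPM at 24 h and 8.80 at 48 h with siGGGGGC. The siNT1 library at 48 h was level with the siGGGGGC library at 24 h, and the log2 fold change was -0.63 (SE 0.27, edgeR adjusted p = 0.155). MRPL24 stood at 74.6 CPM at 24 h and 82.4 at 48 h with siNT1 and at 67.7 CPM at 24 h and 35.2 at 48 h with siGGGGGC. MRPL12 stood at 122 CPM at 24 h and 76.4 at 48 h with siNT1 and at 118 CPM at 24 h and 37.1 at 48 h with siGGGGGC. For both genes the siGGGGGC library at 48 h was the lowest of the 8 and the one at 24 h lay close to siNT1. The log2 fold changes were -0.63 (SE 0.28, edgeR adjusted p = 0.167) for MRPL24 and -0.46 (SE 0.36, edgeR adjusted p = 0.405) for MRPL12. In fits that left out 1 library, the lone siGGGGGC library was assumed to vary like the other groups. Without the one at 24 h, 5 members were called lower and 3 higher, MRPL24 (-1.25) and MRPL12 (-1.24) among the lower, and 13.4% of all genes were called lower and 10.1% higher. Without the one at 48 h no member was called, against 3.47% of all genes lower and 0.524% higher, and MRPL24 came to -0.18 and MRPL12 to 0.065. Next highest after MRPS28 and MRPL28 was MRPL23, at a log2 fold change of 0.66 (SE 0.24, edgeR adjusted p = 0.106), which fell to 0.32 without the siNT1 library at 48 h and rose to 1.03 without the one at 24 h.

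**Figure D2:**
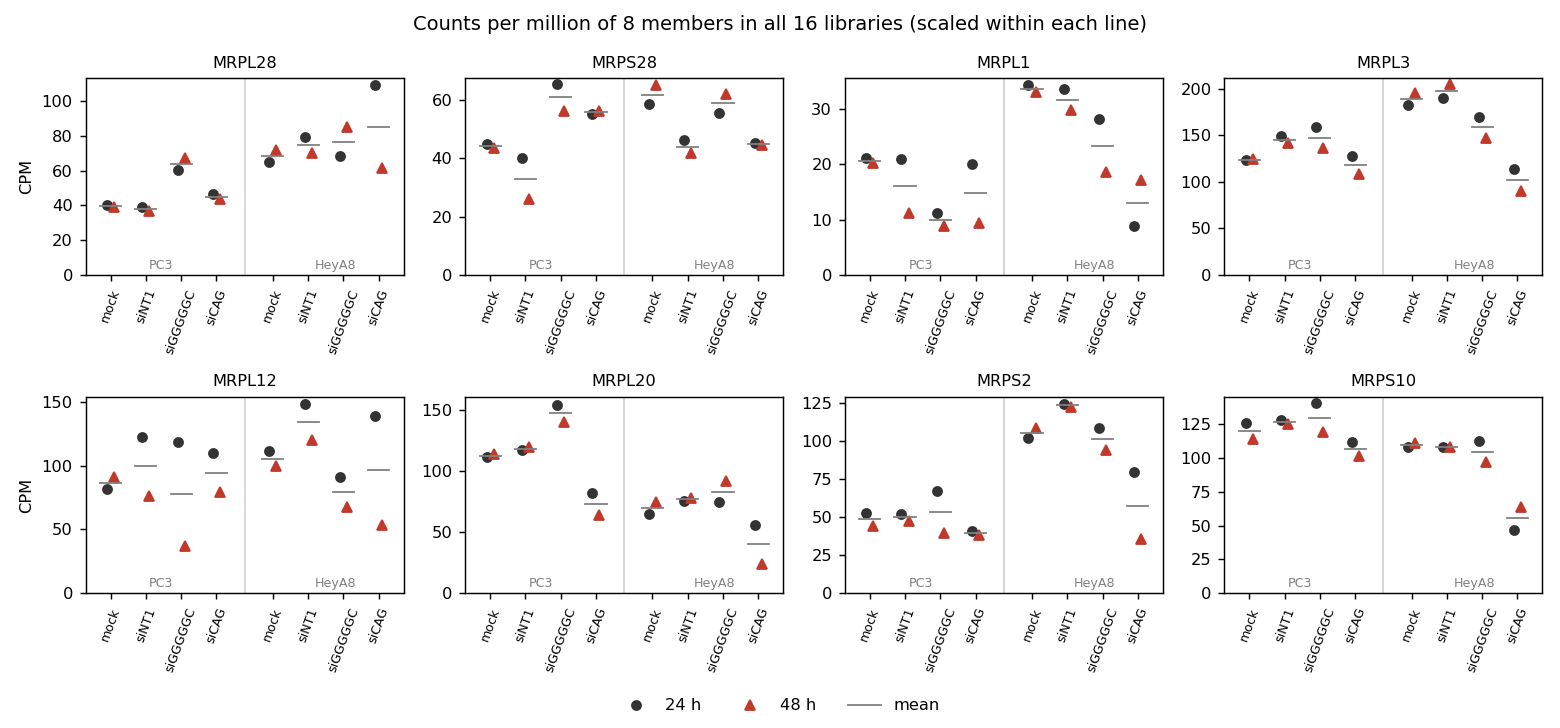
CPM (vertical axis, from 0, TMM-scaled within each line) of MRPL28, MRPS28, MRPL1, MRPL3, MRPL12, MRPL20, MRPS2 and MRPS10 in each library (horizontal axis, PC3 left and HeyA8 right of the grey line). Circles are 24 h, triangles 48 h and short lines the mean of the 2; within PC3 the siGGGGGC libraries stand above the rest for MRPL28, MRPS28 and MRPL20 and the siCAG libraries below the rest for MRPL20 and MRPS10, and within HeyA8 the siCAG libraries stand below the rest for MRPL1, MRPL3, MRPL20, MRPS2 and MRPS10.

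The members with GCCCCC in the 3′ UTR were then compared with the others. Of the 14 in PC3, none was called in either direction with siGGGGGC, while of the 4360 genes tested that held the letters 10.3% were called lower and 3.56% higher. The median log2 fold change of the 14 was 0.12, with 6 of them below 0. The 63 without the letters had a median of 0.17, with 17 of them below 0. Over all genes tested in PC3, those with the letters had a median of -0.08 and the 9022 without them one of 0.04. Of those genes 55.7% and 46.5% were below 0. By copy number, MRPL42 (3 copies) stood at -0.45, MRPL4 (3 copies) at -0.10 and MRPL38 (2 copies) at -0.42, none past the threshold (edgeR adjusted p = 0.144, 0.788 and 0.177). In HeyA8 the same 3 genes stood at -0.05, -0.64 and -0.74 (adjusted p = 0.991, 0.594 and 0.475). The median over the 14 in HeyA8 was -0.19, with 12 of them below 0, against -0.09 over the 63 without the letters, of which 42 were below 0. Over all genes tested in HeyA8 the medians were -0.10 for the 4008 with the letters and 0.04 for the 8418 without. The shares below 0 were 59.1% and 44.7%. The medians of the members depended on the transcript read. By the transcript with the longest coding sequence 12 members held GCCCCC, not including MRPL23, MRPL42 and MRPS27, but MRPL2 was among them, with a median of 0.024 in PC3 and -0.32 in HeyA8. No test was made of these lists.

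siCAG, compared with the same siNT1 libraries, changed no member past the threshold in PC3 by edgeR, where 1.16% of all genes were called lower and 0.0396% higher. At an unadjusted p under 0.05, 1 member was lower and 8 were higher (8.51% and 4.95% of all genes), and DESeq2 called 1 lower and 1 higher (3.50% and 0.871% of all genes). The median was 0.12 against -0.00556 over all genes, and 49 of the 77 lay above siNT1 at both times (63.6%), as did 35.4% of all genes. MRPL20, a large-subunit protein with a bacterial counterpart, was the lowest. It stood at 117 CPM at 24 h and 119.7 at 48 h with siNT1, at 112 CPM at 24 h and 114 at 48 h in mock cells and at 82.2 CPM at 24 h and 64.1 at 48 h with siCAG. The siCAG libraries were the lowest of the line, and the log2 fold change was -0.70 (SE 0.16, edgeR adjusted p = 0.109), with 0.0136 as the adjusted p from DESeq2. MRPS28 was the highest, at 55.3 CPM at 24 h and 56.3 at 48 h and a log2 fold change of 0.78 (SE 0.19, edgeR adjusted p = 0.142). Its siNT1 library at 48 h was low, at 26.0 CPM beside 45.0 and 43.6 in mock cells. MRPS28 was followed by MRPL34 (0.71, edgeR adjusted p = 0.312) and MRPS18B (0.63, edgeR adjusted p = 0.204). MRPL34 also had a low siNT1 library at 48 h, at 28.3 CPM. It stood at 40.9 and 51.4 CPM in mock cells and at 56.9 and 53.8 with siCAG. The next lowest after MRPL20 were MRPS2 (-0.33, adjusted p = 0.505) and MRPL3 (-0.31, adjusted p = 0.401). With the 4 libraries of siCAG and siNT1 fitted alone, 1 member was called lower and 8 higher, beside 11.1% and 4.92% of all genes.

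In HeyA8, edgeR called none of the 77 members with siGGGGGC, nor any of the 13872 genes tested (0%). At an unadjusted p under 0.05, 2 members were lower and 0 higher, which is 2.60% and 0% of them beside 6.13% and 3.61% of all genes. The fit of all 8 libraries of this line gave a larger spread, with a biological coefficient of variation of 28.2% against 18.0% in PC3. A member's log2 fold change had a median SE of 0.26 against 0.17. The estimate includes the siCAG libraries, where the summed CPM of the members had the largest SD of the line, 770 (n = 2). The SD was 299 in mock cells, 112 with siGGGGGC and 55.6 with siNT1. The median of the members was -0.09 against 0.00399 over all genes, with 38 below siNT1 at both times (49.4%) and 13 above (16.9%), as were 33.4% and 34.6% of all genes. MRPL41, a protein of the large subunit without a bacterial counterpart, stood at 46.6 CPM at 24 h and 29.6 at 48 h with siNT1 and at 19.9 CPM at 24 h and 21.9 at 48 h with siGGGGGC, but its mock libraries held 24.6 and 21.0 CPM. The siGGGGGC values thus lay beside those of mock cells and below both siNT1 libraries, for a log2 fold change of -0.81 (SE 0.29, edgeR adjusted p = 0.471) that ranged from -1.19 without the siGGGGGC library at 48 h to -0.48 without the one at 24 h. MRPL12 stood at 148 CPM at 24 h and 120.0 at 48 h with siNT1, at 111 CPM at 24 h and 100 at 48 h in mock cells and at 91.3 CPM at 24 h and 67.3 at 48 h with siGGGGGC. Both siGGGGGC libraries were below the 4 controls, and the log2 fold change was -0.77 (SE 0.33, edgeR adjusted p = 0.518). MRPL38 stood at 67.2 CPM at 24 h and 60.2 at 48 h with siNT1 and at 44.2 CPM at 24 h and 33.2 at 48 h with siGGGGGC, again below the controls, with a log2 fold change of -0.74 (SE 0.27, edgeR adjusted p = 0.475). MRPL12 and MRPL38 were the 2 members called lower when the siCAG libraries were left out of the fit (edgeR adjusted p = 0.0264 and 0.0398). That alternative, added after the data were seen, called 2.56% of all genes lower and 0.959% higher. With the 4 libraries of siGGGGGC and siNT1 fitted alone, 5 members were called lower and 0 higher, beside 5.78% and 3.09% of all genes. At the upper end in the fit of all 8 libraries were MRPS31 (0.52), MRPS28 (0.42) and MRPL10 (0.33), with edgeR adjusted p of 0.521, 0.578 and 0.799. With 1 library left out in turn MRPS31 ranged from 0.33 to 0.68 and MRPL10 from 0.049 to 0.58, lowest for both without the siGGGGGC library at 48 h.

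The largest decreases among the 4 comparisons were measured with siCAG in HeyA8, although edgeR called none of the 77 members. Over all genes 4.93% were called lower and 2.88% higher. At an unadjusted p under 0.05, 9 members were lower and 1 was higher, which is 11.7% and 1.30% of them beside 15.1% and 14.5% of all genes. DESeq2 called 6 lower, namely MRPL1, MRPL3, MRPL13, MRPL39, MRPS2 and MRPS10, and 0 higher, beside 11.1% and 8.47% of all genes. MRPL3 (chr3:131462212-131502983, minus strand, hg38), which reaches toward the peptidyl transferase center, was closest to the edgeR threshold. It stood at 190.3 CPM at 24 h and 206 at 48 h with siNT1, at 183 CPM at 24 h and 196 at 48 h in mock cells and at 114 CPM at 24 h and 90.2 at 48 h with siCAG. Both siCAG libraries were below the other 6 of the line, and the log2 fold change was -0.96 (SE 0.23, edgeR adjusted p = 0.0501). MRPS10, a small-subunit protein, stood at 108 CPM at 24 h and 108 at 48 h with siNT1 and at 46.8 CPM at 24 h and 63.7 at 48 h with siCAG, which were also the lowest of the line, for a log2 fold change of -0.97 (SE 0.24, edgeR adjusted p = 0.0557). MRPL1 stood at 33.5 CPM at 24 h and 29.9 at 48 h with siNT1 and at 8.76 CPM at 24 h and 17.1 at 48 h with siCAG, for a log2 fold change of -1.30 (SE 0.38, edgeR adjusted p = 0.0815). MRPS2 stood at 125 CPM at 24 h and 123 at 48 h with siNT1 and at 79.5 CPM at 24 h and 35.7 at 48 h with siCAG, for a log2 fold change of -1.16 (SE 0.34, edgeR adjusted p = 0.0804). For MRPL1 the 24 h library was the lower of the 2 with siCAG, and for MRPS2 the 48 h library was. Without the siCAG library at 48 h MRPL1 came to -2.0 and MRPS2 to -0.67, and without the one at 24 h to -0.76 and -1.78. MRPL20, the lowest member in PC3, stood at 75.5 CPM at 24 h and 78.2 at 48 h with siNT1 and at 56.0 CPM at 24 h and 24.2 at 48 h with siCAG, for -0.97 (SE 0.39, edgeR adjusted p = 0.155).

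The members with the highest values under siCAG in HeyA8 were MRPS21, MRPS18B and MRPS33, all of the small subunit. MRPS21 stood at 20.5 CPM at 24 h and 22.1 at 48 h with siNT1 and at 38.0 CPM at 24 h and 27.2 at 48 h with siCAG, for a log2 fold change of 0.61 (SE 0.26, edgeR adjusted p = 0.179). MRPS18B stood at 70.1 CPM at 24 h and 77.8 at 48 h with siNT1, 74.5 CPM at 24 h and 96.5 at 48 h in mock cells and 129 CPM at 24 h and 91.6 at 48 h with siCAG, so that the siCAG and mock values overlapped (0.59, adjusted p = 0.201). MRPS33 stood at 0.55 (adjusted p = 0.151). Without the siCAG library at 24 h MRPS21 came to 0.29 and MRPS18B to 0.17, and without the one at 48 h to 0.88 and 0.92.

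The 2 time points did not move alike in every comparison. Values at a single time come from 1 library of each siRNA and were not tested. With siCAG in HeyA8 the median of the members was 0.10 at 24 h and -0.38 at 48 h, while over all genes it was -0.00456 and 0.011. Most related gene lists, described below, also had lower medians at 48 h. These were 0.15 and -0.40 for assembly factors, -0.08 and -0.40 for translation factors and 0.12 and -0.19 for aminoacyl-tRNA synthesis. Respiratory chain genes had 0.32 and -0.02 and cytosolic ribosomal protein genes 0.54 and 0.27. The genes of mitochondrial DNA transcription and replication had -0.39 and -0.37. MRPL42 was an extreme case, at 76.3 CPM at 24 h and 87.9 at 48 h with siNT1 and 20.5 CPM at 24 h and 98.7 at 48 h with siCAG. The siCAG library at 24 h was the lowest of the line for this gene and the one at 48 h the highest. Leaving out the siCAG library at 24 h gave 19 members called lower and 0 higher, beside 17.4% and 14.1% of all genes. Leaving out the one at 48 h gave 12 lower and 10 higher, beside 21.9% and 11.0% of all genes. These were fits where the lone siCAG library was assumed to vary like the other groups. In this comparison 35 members lay above siNT1 at 24 h and below it at 48 h, and 4 the other way. At both times 27 lay below it (35.1%, against 33.2% of all genes) and 11 above it (14.3%, against 33.4%). With siGGGGGC in PC3, 8 members lay below siNT1 at both times (10.4%, against 34.2% of all genes) and 39 above at both (50.6%, against 36.5%). Another 25 lay above at 24 h and below at 48 h. The share of all genes that crossed siNT1 in this way was not counted in either comparison. The summed CPM of the members with siGGGGGC was 5540.0 at 24 h and 4593 at 48 h, beside 4830.4 and 4605 with siNT1. With siCAG in HeyA8 the sum was 4916 and 3827 CPM, beside 4843 and 4922 with siNT1. CPM are shares of a library, and in RNA from a whole culture fewer cells with a transcript and less of it per cell cannot be told apart.

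**Figure D3:**
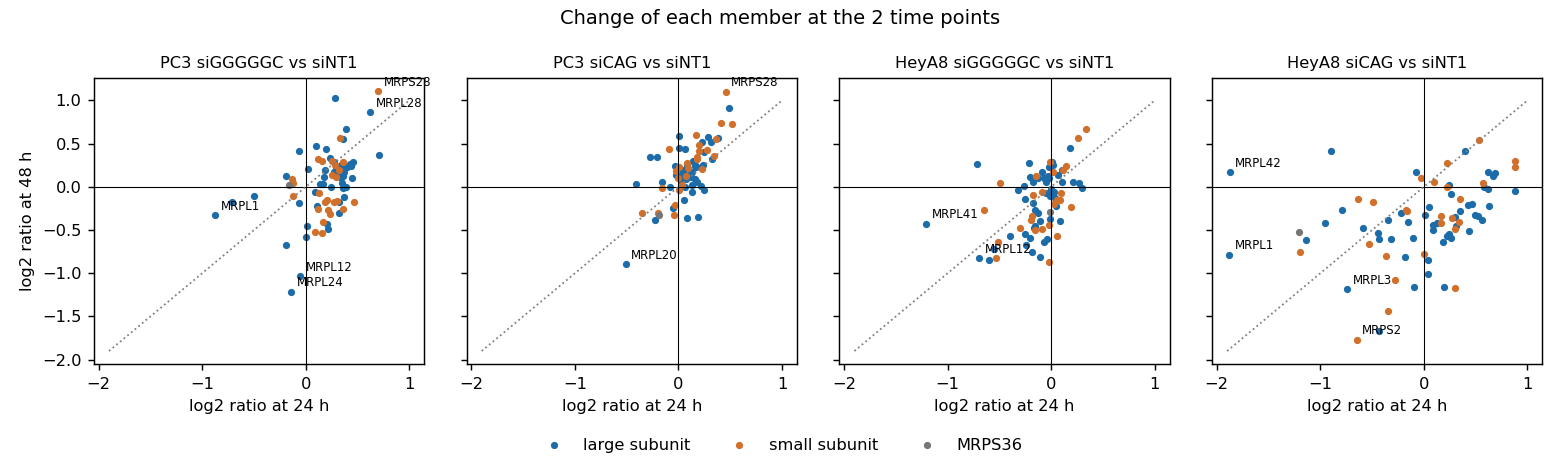
Log2 ratio to siNT1 at 24 h (horizontal axis) and at 48 h (vertical axis) of the 77 members in the 4 siRNA comparisons, with 0.5 CPM added to both values; the dotted line marks equal ratios. In PC3 with siCAG 49 points lie above 0 on both axes, and in HeyA8 with siCAG 35 lie above 0 at 24 h and below 0 at 48 h.

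The siRNA control and time were compared in the same fits. siNT1 against mock gave 0 members called by edgeR in PC3, where 0.231% of all genes were called, and 0 in HeyA8, where no gene was called (0%). At an unadjusted p under 0.05, 1 member was lower and 1 higher in PC3 (3.86% and 5.15% of all genes), and 0 were lower and 1 higher in HeyA8 (0.634% and 0.642%). MRPS28 was among the lowest in both lines (-0.44 and -0.49) and MRPL41 the highest in both (0.40 and 0.71), without passing the test (adjusted p = 0.556 and 1 for MRPS28, 0.805 and 1 for MRPL41). Between 48 and 24 h, tested over 4 pairs of libraries in each line, 0 members were called by edgeR in PC3 (0.0264% of all genes) and 0 in HeyA8 (0% of all genes). At an unadjusted p under 0.05 there were 3 lower and 0 higher in PC3 (7.12% and 6.30% of all genes), and 1 lower and 0 higher in HeyA8 (3.75% and 2.59%). MRPL12 had the lowest value in both lines, -0.66 in PC3 (adjusted p = 0.354) and -0.56 in HeyA8 (adjusted p = 0.724). The 4 pairs were not alike in PC3, where MRPL12 stood at 81.8 CPM at 24 h and 90.9 at 48 h in mock cells, while it was lower at 48 h with each siRNA.

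Whether the lines responded differently was tested as the difference of their log2 fold changes over all 16 libraries. For siGGGGGC edgeR called 0 members and 0% of all genes, and at an unadjusted p under 0.05 no member either, against 4.41% of all genes lower and 2.23% higher. The median difference, PC3 minus HeyA8, was 0.28 for the members and 0.00705 for all genes. Above 0 were 67 of the 77 members and 8026 of the 15887 genes. Cytosolic ribosomal protein genes had a median of 0.28, with 79 of 81 above 0. Nuclear-encoded subunits of the respiratory chain and ATP synthase also had a median of 0.28, with 70 of 75 above 0. For siCAG 0 members were called and 0.636% of all genes, with 0 members lower and 6 higher at an unadjusted p under 0.05, beside 9.03% and 5.61% of all genes. The largest difference for siCAG was that of MRPL1, 1.05 (SE 0.47, edgeR adjusted p = 0.338), and for siGGGGGC that of MRPL41, 1.04 (SE 0.53, edgeR adjusted p = 0.797). A difference between the lines was thus not shown for any single member.

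Members with well-described roles are given next by their log2 fold changes for siGGGGGC and siCAG in PC3 and then in HeyA8, none of them past the threshold. MRPL11, which binds the rRNA beneath the factor-recruiting stalk, stood at 0.35, 0.05, -0.02 and -0.38. MRPS12, a protein of the decoding site, stood at -0.16, 0.16, -0.69 and -0.07. MRPS7, which helps to assemble the head of the small subunit, stood at -0.11, -0.02, -0.24 and -0.02. The 3 related genes MRPS18A, MRPS18B and MRPS18C encode proteins at different sites of the ribosome. MRPS18A stood at 0.13, 0.08, -0.01 and -0.00, MRPS18B at -0.02, 0.63, 0.20 and 0.59 and MRPS18C at 0.28, 0.39, 0.01 and -0.33. MRPS30 stood at 0.28, 0.38, -0.15 and -0.53. MRPL12 and MRPL3 completed this group, at -0.46, -0.05, -0.77 and -0.58 for MRPL12 and 0.02, -0.31, -0.32 and -0.96 for MRPL3. In HeyA8 the siCAG values ranged over more of the scale than those of PC3, from -0.96 to 0.59 in this group.

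The genes that act with the mitochondrial ribosome were read in the same fits. With siGGGGGC in PC3, 2 of the 22 assembly factors were called lower and none higher, in a fit that called 6.00% of all genes lower and 3.67% higher. MPV17L2, which associates with the large subunit during its assembly, stood at -1.37 (SE 0.29, adjusted p = 0.0325) and GTPBP10, a GTPase of late large-subunit assembly, at -0.89 (SE 0.20, adjusted p = 0.0385). Of the 15 translation factors 2 were called lower, GUF1, an elongation factor, at -0.81 (SE 0.16, adjusted p = 0.0274) and LRPPRC, which stabilizes mitochondrial mRNAs, at -0.70 (SE 0.14, adjusted p = 0.0292). Of the 20 genes of aminoacyl-tRNA synthesis, VARS2, the valyl-tRNA synthetase, was lower at -0.59 (SE 0.15, adjusted p = 0.0469) and MARS2, the methionyl-tRNA synthetase, was higher at 0.88 (SE 0.17, adjusted p = 0.0263). None of the 8 genes of mitochondrial DNA transcription and replication and none of the 6 mitoribosomal proteins under other symbols was called. The members' median of 0.17 stood beside 0.18 for the 81 cytosolic ribosomal protein genes tested and 0.26 for the 75 nuclear-encoded subunits of the respiratory chain and ATP synthase. Of the cytosolic list, which included close paralogs and left out RPL14, a gene with a known CTG-type repeat, RPS7 (0.63) and RPL7L1 (0.69) were called higher, and of the respiratory chain list NDUFA7 (0.89) and NDUFA8 (0.60).

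With siCAG in HeyA8, where 4.93% of all genes were called lower and 2.88% higher, the assembly factors MALSU1, which keeps the subunits from joining too early, and MTERF3 were called lower, at -1.13 (SE 0.25, adjusted p = 0.0434) and -1.18 (SE 0.24, adjusted p = 0.0374), and YBEY, an RNA processing endonuclease, was higher at 1.36 (SE 0.29, adjusted p = 0.0412). None of the translation factors, the aminoacyl-tRNA synthesis genes, the genes of mitochondrial DNA transcription and replication or the mitoribosomal proteins under other symbols was called there. The median was 0.41 over the cytosolic ribosomal protein genes, 0.13 over the respiratory chain genes and -0.14 over the members. In the cytosolic list RPL22L1 was lower (-3.10) and RPS18 higher (0.77), and in the respiratory chain list NDUFA7 was higher (1.24). With siCAG in PC3 and with siGGGGGC in HeyA8, no gene of any of these lists was called. The medians over cytosolic and respiratory chain genes were 0.23 and 0.15 in the former and -0.13 and -0.04 in the latter. The mRNAs and rRNAs encoded by mitochondrial DNA were not analysed here.

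**Figure D4:**
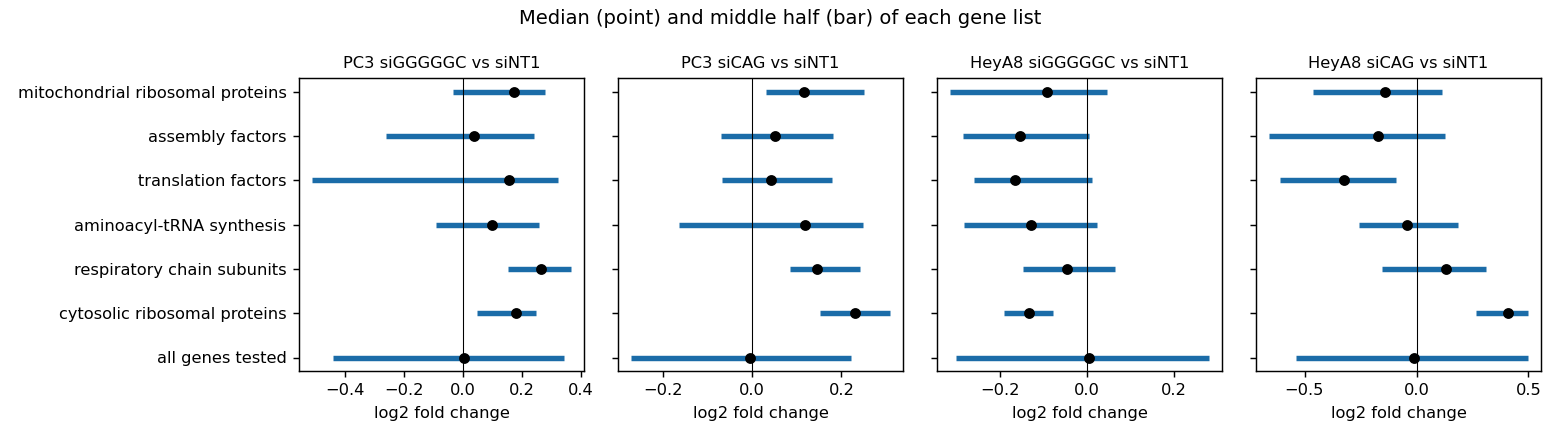
Median log2 fold change (point) and spread of the genes (bar, from the lower to the upper quartile; horizontal axis, with its own scale in each panel) of the mitochondrial ribosomal proteins, 5 other gene lists and all genes tested in the 4 siRNA comparisons. The medians of the members lie between the quartiles of all genes in each panel, and the cytosolic ribosomal proteins stand furthest to the right in HeyA8 with siCAG.

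The clearest differences in the level of these genes were between the 2 lines themselves. In mock cells, 27 of the 77 members were lower and 6 higher in PC3 than in HeyA8 by edgeR, where 22.0% of all genes were lower and 29.0% higher. The median log2 difference, PC3 minus HeyA8, was -0.38 for the members and 0.0968 for all genes. The split rests in part on the scaling. With library size alone in place of TMM factors, an alternative added after the data were seen, the median of all genes moved up by 0.301, and 19 members were lower and 12 higher, beside 15.9% and 37.0% of all genes, so that the lower share of the calls went from 81.8% to 61.3%. The median of the members minus that of all genes was -0.477 under both scalings. With the 4 mock libraries fitted alone, 45 members were lower and 12 higher, beside 36.3% and 38.7% of all genes. The members together took 0.456% and 0.475% of the counts in the mock PC3 libraries and 0.458% and 0.490% in those of HeyA8. With TMM factors 17 were lower and 1 higher of 50 in the large and 9 lower and 5 higher of 26 in the small subunit, and MRPS36 was also lower. With library size alone the large subunit had 13 lower and 6 higher and the small subunit 6 of each. The line and any handling that differed between the lines cannot be told apart.

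MRPL15, a large-subunit protein with a bacterial counterpart, differed most. It stood at 17.7 CPM at 24 h and 15.9 at 48 h in PC3, and 168 and 194 in HeyA8. The log2 difference was -3.43 (SE 0.23, edgeR adjusted p = 8.30e-07). MRPL54 stood at 9.91 CPM at 24 h and 8.64 at 48 h in PC3, and 33.2 and 40.7 in HeyA8, a log2 difference of -2.0 (SE 0.31, edgeR adjusted p = 0.000294). MRPS22, which is found only in mitochondrial ribosomes, stood at 33.5 CPM at 24 h and 30.1 at 48 h in PC3, and 84.3 and 89.7 in HeyA8, a log2 difference of -1.45 (SE 0.18, edgeR adjusted p = 6.00e-05). In each of these 3 genes both PC3 libraries were below both HeyA8 libraries by a wide margin. Higher in PC3 were MRPL55 with 40.2 CPM at 24 h and 48.6 at 48 h in PC3, and 13.2 and 13.3 in HeyA8, MRPS21 with 68.3 CPM at 24 h and 74.9 at 48 h in PC3, and 21.1 and 26.1 in HeyA8, and MRPS16 with 346 CPM at 24 h and 347 at 48 h in PC3, and 135 and 143 in HeyA8. Their log2 differences were 1.75 (SE 0.28, edgeR adjusted p = 0.000432), 1.60 (SE 0.25, edgeR adjusted p = 0.000296) and 1.31 (SE 0.21, edgeR adjusted p = 0.000473). MRPS16 and MRPS21 are small-subunit proteins with bacterial counterparts. MRPS21 has 8 annotated pseudogenes and MRPS16 has 3, with which reads may be shared, and exons of MRPS22 overlap those of COPB2 on the opposite strand. The other 3 members higher in PC3 were MRPS26 (1.20), MRPS6 (1.19) and MRPS23 (0.51). Exons of MRPS6 overlap those of SLC5A3 on the same strand, and MRPS6 has 2 annotated pseudogenes.

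**Figure D5:**
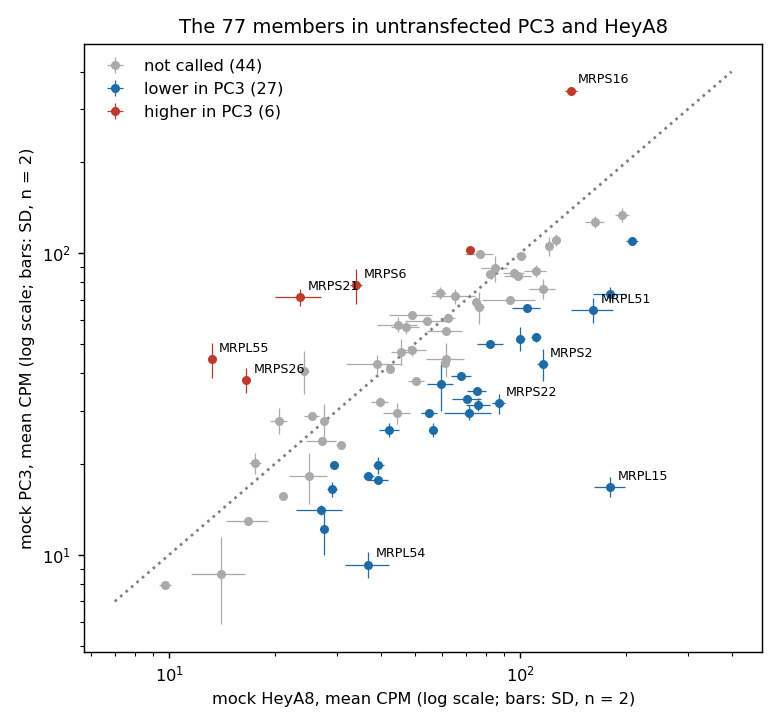
Mean CPM of the 77 members in mock HeyA8 (horizontal axis, log scale) and mock PC3 cells (vertical axis, log scale), TMM-scaled over all 16 libraries, with bars of 1 SD over the 24 and 48 h libraries (n = 2) and a dotted line of equal levels. The 27 members called lower in PC3 lie below the line, MRPL15 furthest, and the 6 called higher lie above it.

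In the same TMM-scaled fit, with 22.0% of all genes lower and 29.0% higher, 69 of the 81 cytosolic ribosomal protein genes were lower in mock PC3 and 1 higher, with a median log2 difference of -1.35, whereas the respiratory chain genes gave 12 lower and 11 higher of 75 with a median of 0.02. Of the translation factors 9 of 15 were lower and none higher, and of the assembly factors 9 of 22 were lower and 1 higher. The aminoacyl-tRNA synthesis genes gave 6 lower and 3 higher of 20. The mitoribosomal proteins under other symbols gave 0 lower and 2 higher of 6, and the genes of mitochondrial DNA transcription and replication 0 of 8 in either direction. With library size alone, where 15.9% of all genes were lower and 37.0% higher, the cytosolic list had 62 lower and 2 higher and the respiratory chain list 5 lower and 27 higher. The translation factors had 6 lower and 2 higher, the assembly factors 5 lower and 4 higher and the aminoacyl-tRNA synthesis genes 3 lower and 7 higher. The mitoribosomal proteins under other symbols had 0 lower and 3 higher, and the genes of mitochondrial DNA transcription and replication 0 lower and 1 higher.

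Levels of different members were compared as CPM per kb of exon, which divides the mean over the mock libraries by the length of all annotated exons of the gene. The highest in PC3 were MRPS16 (124), MRPL12 (75.6), MRPS35 (65.9), MRPL14 (57.6) and MRPL37 (52.5) CPM per kb, and the lowest MRPL22 (3.36), MRPS24 (3.32), MRPL23 (2.67), MRPL46 (2.45) and MRPS22 (1.94). In HeyA8 the highest were MRPL51 (116), MRPL12 (115), MRPL15 (102), MRPS35 (84.5) and MRPL47 (81.3) CPM per kb, and the lowest MRPS11 (4.53), MRPS25 (4.17), MRPS33 (3.91), MRPL46 (3.29) and MRPL23 (3.27). The median member stood at 18.5 CPM per kb in PC3 and 21.7 in HeyA8. MRPL12 and MRPS35 were among the 5 highest in both lines, and MRPL23 and MRPL46 among the 5 lowest in both. In HeyA8 MRPL51 (SD 15.8, n = 2) and MRPL12 (SD 9.59) did not differ beyond their spread, nor did MRPL12 and MRPL15 (SD 10.4), MRPS35 (SD 5.30) and MRPL47 (SD 2.65), or MRPL47 and the next, MRPL3 (76.5 CPM per kb, SD 3.02). In PC3 the first 4, MRPS16 (SD 0.213, n = 2), MRPL12 (SD 5.62), MRPS35 (SD 3.21) and MRPL14 (SD 1.86), each stood apart from the next by more than their SDs, whereas MRPL37 (SD 2.70) and the next, MRPS10 (50.4 CPM per kb, SD 3.63), did not. At the lower end in PC3, MRPS24 (SD 1.07) overlapped MRPL22 (SD 0.00146), MRPL23 (SD 0.0106) and MRPL46 (SD 0.0505), which did not overlap each other, and the next above, MRPS25 (3.62 CPM per kb, SD 0.441), overlapped MRPL22. In HeyA8 MRPS11 overlapped MRPS25, MRPS25 overlapped MRPS33, and MRPL46 overlapped MRPL23. The order leans on the length used. With the length of the transcript that has the longest coding sequence, 2 of the 5 highest stayed among the 5 highest in each line, and of the 5 lowest 1 stayed in PC3 and 2 in HeyA8. By that length MRPL46 ranked 58 in PC3 and 59 in HeyA8 of the 77, and MRPL23 ranked 67 and 72. MRPS16 was the highest in PC3 and MRPL51 in HeyA8 by both lengths.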

How the data were processed

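The authors made RNA-seq libraries from total RNA with Illumina TruSeq kits after ribosomal RNA depletion, used Trimmomatic 0.33 for trimming and, per the labels, STAR for alignment to hg38, and took reads on the exons of Ensembl 78 genes with htseq 0.6.1. The deposited values are whole-number counts, not normalized, for 26485 genes. Whether counting used strand is not given in the sources used here.

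Within each line, genes were filtered by filterByExpr, scaled by TMM and fitted by edgeR 4.0.16 (R 4.3.3) with a quasi-likelihood model of siRNA and time point over all 8 libraries. The lines were compared in 1 model over all 16. Calls are at a Benjamini-Hochberg adjusted p under 0.05 over all genes tested, 15136 in PC3, 13872 in HeyA8 and 15887 in the joint model. Log2 ratios at 1 time point used CPM plus 0.5. DESeq2 1.42.0 was an alternative. Named genes are the 3 or more most extreme members of each siRNA comparison with siNT1 and of the mock lines. Some extreme members of the other comparisons are also named. The rest are members with fixed roles, members with the most GCCCCC copies, and the highest and lowest levels. Sequences and lengths came from GENCODE v44, to which 23161 symbols matched directly, 1384 matched through older symbols and 1940 did not match. The members, the lists and the tests were chosen with earlier results of these data known. Figures used matplotlib.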

Additional observations from a re-analysis of the deposited data

How the results depend on the processing

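The counts of members called moved with the setting in several comparisons, and the cause was not tested. Percentages are the shares of all genes called in the same fit. For siGGGGGC in PC3, members called higher were 1 with no term for time (1.17%) and 0 with the 4 compared libraries alone (0.512%). DESeq2 gave 0 lower (12.5%) and 3 higher (8.46%), and mock as control gave 2 lower (12.3%) and 4 higher (8.83%). For siCAG in PC3, DESeq2 gave 1 lower (3.50%) and 1 higher (0.871%), and the 4 libraries alone 1 lower (11.1%) and 8 higher (4.92%). For siGGGGGC in HeyA8, the 4 libraries alone gave 5 lower (5.78%) and the fit without the siCAG libraries 2 lower (2.56%). For siCAG in HeyA8, RLE size factors gave 1 lower (4.98%), DESeq2 6 (11.1%), no filter on low counts 1 (4.20%) and no term for time 2 (5.20%). For 48 against 24 h in HeyA8, the mock and siNT1 libraries alone gave 2 lower (6.76%) and 5 higher (5.20%). Between the mock lines, the 4 mock libraries alone gave 45 lower (36.3%) and 12 higher (38.7%), and library size alone 19 lower (15.9%) and 12 higher (37.0%).

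Leaving out 1 library in turn, siGGGGGC in PC3 gave 0 to 5 members lower and 0 to 3 higher with a median log2 fold change of 0.041 to 0.23, siCAG in PC3 a median of 0.063 to 0.20, siGGGGGC in HeyA8 a median of -0.18 to -0.044, and siCAG in HeyA8 0 to 19 lower and 0 to 10 higher with a median of -0.37 to 0.10. MRPL28 and MRPS28, the members past the threshold in these comparisons with all libraries, did not change sign. MRPL12 with siGGGGGC in PC3, which did not pass it, ranged from -1.24 to 0.065. Single libraries were not left out of the comparison of the mock lines. The members with GCCCCC numbered 14 by the longest 3′ UTR and 12 by the transcript with the longest coding sequence.

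Depth was 27937092 to 31790209 counted reads over all libraries. Each condition has 2 libraries, and a member's log2 fold change had a median SE of 0.17 in PC3 and 0.26 in HeyA8. Exons of 32 members overlap another protein-coding gene and 36 members have annotated pseudogenes, and the share of reads this touches was not tested.

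The fits with time point as a term pair the libraries of a line by time. No paired analysis was possible by any other number because the labels give none.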
